A study of Danio rerio with 6 samples.

Results

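Intraflagellar transport (IFT) and BBSome genes were examined in the testis of adult zebrafish (Danio rerio) after a short exposure to nanoplastics. Members were all genes whose symbol is ift or bbs followed by a digit, with 10 or more counts in 3 or more libraries. All 22 such genes of the 32520 in the table passed that filter. They comprise 1 subunit of IFT-A (IFT140), 13 of IFT-B, 6 of the BBSome and 2 BBS genes outside these complexes, bbs10 and bbs12. Other subunits, such as WDR19, TTC8 and BBIP1, carry symbols that the rule does not take and are given beside the members; ift43 and ift122 were not analysed here.

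The libraries came from wild-type fish: 3 controls kept in water without plastic, and 3 fish for which polystyrene nanoplastics, plastic particles of submicrometre size, were added to the water every 24 h over 96 h. Each library is 1 fish. Libraries are called, by the replicate and then the animal given in their titles, control 1-2, 2-2 and 3-1 and exposed 2-2, 3-1 and 3-3. The sources used here give neither the age of the fish nor the size and dose of the particles. Nothing in the labels says whether fish with the same replicate number shared a tank (exposed 3-1 and 3-3 carry the same number). The p-values set the group difference against the spread between fish of a group and treat every fish as independent. If exposed 3-1 and 3-3 shared a tank, the p-values may be too small.

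Cilia and flagella are built by trains of IFT proteins that carry tubulin and membrane cargo along the axoneme. Kinesin-2 motors move the trains to the tip and cytoplasmic dynein-2 brings them back. IFT-B carries building material outward, IFT-A is needed for the return and for the entry of membrane proteins, and the BBSome couples membrane proteins to the trains. In mice, loss of IFT proteins such as IFT88, IFT20 or IFT172 disturbs the sperm flagellum, and males without Bbs2 or Bbs4 lack sperm flagella.

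Levels below are counts per 1000000 counts (CPM) after TMM scaling, which aligns libraries on the bulk of their genes. Means carry the SD over the 3 fish of a group. Log2 fold changes are exposed over control ± SE from edgeR, so that negative values are lower in exposed testes. Transcript length was not used, so a level is compared between libraries and not between genes. Library totals ran from 76205591 to 108273937 counts, and the 3 deepest libraries were the exposed ones. Members had between 594 and 50958 counts in a library, so that counting error was small beside the spread between fish. As for the tissue, markers of spermatocytes such as SYCP1 (1831 ± 137 CPM in control and 1052 ± 284 CPM in exposed testes) were read in all libraries. Of the 20 spermatid and sperm markers only TSSK6, a kinase of mammalian spermatids, had 0 counts in all 6.

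All 22 members had a log2 fold change below 0 under TMM scaling (3 and 14 of 22 when scaled to spermatocyte or spermatid markers, as described below), between -1.19 and -0.12 with a median of -0.71, whereas 47.9% of the 26108 genes tested lay below 0 and their median was 0.04. No member passed edgeR's quasi-likelihood test at an adjusted p of 0.05 (smallest adjusted p = 0.156, for IFT22), and neither did any other gene (0 of 26108, 0%). At an unadjusted p under 0.05, 14 members (63.6%) were lower and 0 higher, against 6.79% and 9.68% of all genes. The same 14 members had every exposed library below every control, which held for 10.9% of all genes in that direction. DESeq2 called 3 members lower, IFT22, IFT80 and BBS2, and 0 higher, where it called 1.34% of all genes lower and 5.35% higher, and limma voom called 0 genes. At an unadjusted p under 0.01 there were 4 members (IFT22, IFT80, BBS2 and BBS4), against 1.6% of all genes. The count of 14 moved with the scaling, with a replicate block and with single libraries. With the replicate number of the labels as a block the count was 3 (3.35% of all genes). It was 8 when libraries were scaled to their totals (4.84% of all genes) and 15 under upper quartile scaling (7.19%). It was 5 without control 2-2, 5 without exposed 3-1, 6 without control 1-2, 7 without exposed 2-2 and 16 without control 3-1 or exposed 3-3, beside 4.23%, 3.7%, 4.03%, 4.79%, 6.62% and 8.87% of all genes in that order. DESeq2's count of 3 became 1, IFT22, without control 1-2 (0.761% of all genes lower), control 2-2 (0.643%), exposed 2-2 (1.21%) or exposed 3-1 (0.969%), 5 without control 3-1 (1.87%) and 11 without exposed 3-3 (5.26%).

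The direction depended on what the libraries were scaled to. With libraries scaled to 17 spermatocyte markers, the median over all genes moved from 0.04 to 0.96, the members' median was 0.14 and 3 of 22 members lay below 0, against 9% of all genes. With scaling to the spermatid and sperm markers, the median over all genes was 0.73, the members' median was -0.06 and 14 of 22 lay below 0, against 16.1% of all genes. Relative to the median of all genes, the members lay at -0.75 under TMM, at -0.82 under spermatocyte scaling and at -0.79 under spermatid scaling. A change of scaling moves all genes by nearly the same amount, so these values had to stay close and are no separate support. The marker lists themselves had medians of -0.85 (spermatocyte) and -0.71 (spermatid and sperm) under TMM. Members with similar fold changes therefore had to come near 0 when scaled to these lists. No member had an unadjusted p under 0.05 in edgeR in either germ cell scaling, where 0.153% and 0.287% of all genes were lower and 37.8% and 22.8% higher. IFT22, BBS4 and bbs10 stayed below 0 under both.

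**Figure D1:**
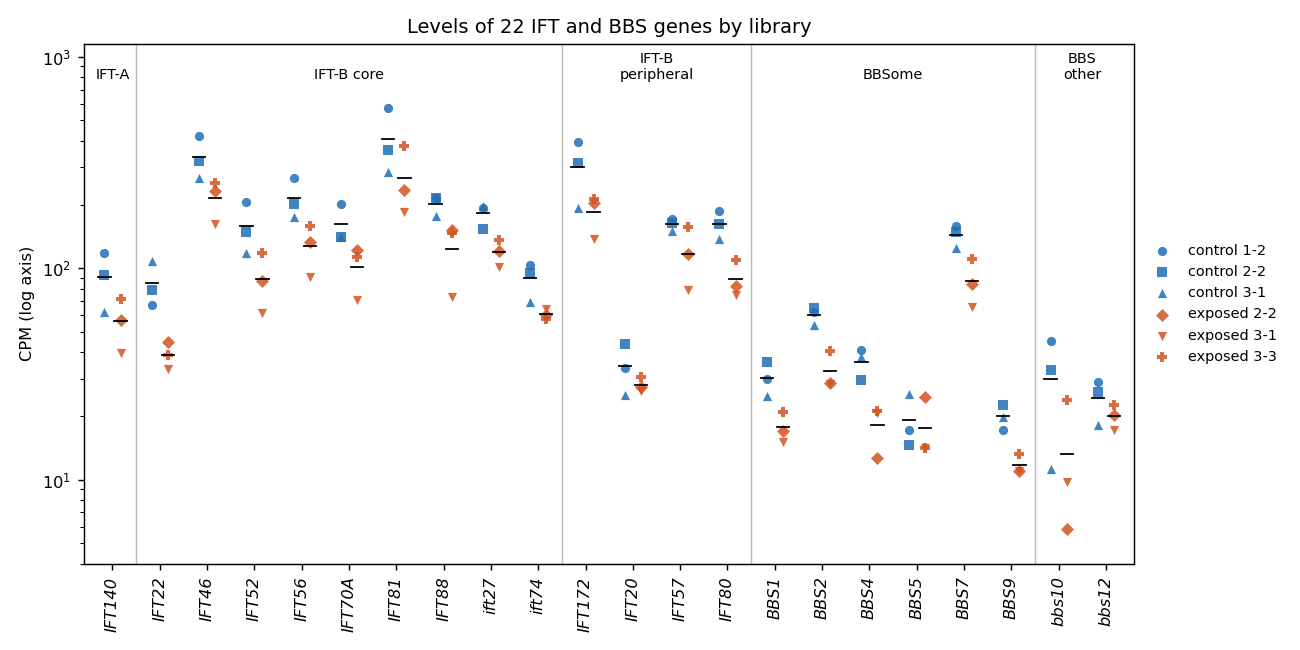
CPM on a log axis for each of the 22 members, 1 point per library, controls in blue and exposed testes in orange, with black bars at the group means and vertical lines between complexes. Under this TMM scaling the exposed mean is below the control mean for every member, although 19 and 8 members lie above 0 when scaled to spermatocyte or spermatid markers, and the points of the groups are separate for 14 of them.

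The only IFT-A member under the rule was IFT140, a large subunit of the complex. IFT140 had 118, 93.4 and 62.4 CPM in controls 1-2, 2-2 and 3-1 and 56.8, 39.9 and 71.9 CPM in exposed 2-2, 3-1 and 3-3. Exposed 3-3 was above control 3-1, so the groups overlapped. The log2 fold change was -0.70 ± 0.31 (edgeR adjusted p = 0.314). The other IFT-A subunits in the name table were WDR19 (IFT144), WDR35 (IFT121) and TTC21B (IFT139). WDR19 had 85.5, 80.0 and 77.2 CPM in control and 54.7, 42.5 and 55.1 CPM in exposed testes, with no overlap and a log2 fold change of -0.67 ± 0.20 (edgeR adjusted p = 0.189). WDR35 stood at -0.60 ± 0.25 and TTC21B at -0.87 ± 0.33. Over these 4 IFT-A genes the median log2 fold change was -0.69.

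IFT-B has a core and a peripheral part. In the core, 8 of 9 members had an unadjusted p under 0.05 and separate groups. In the peripheral part 1 of 4 did. These counts leave out subunits under other symbols, all with overlapping groups. Their edgeR unadjusted p was 0.143 for hspb11 (core), 0.18 for CLUAP1 and 0.144 for TRAF3IP1 (both peripheral). Over all genes 6.79% were lower at that p and 10.9% had separate groups in that direction. Whether the parts differ was not tested. The median log2 fold change was -0.66 for the 9 core members and -0.59 for the 4 peripheral ones.

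IFT22 (ENSDARG00000020822), a small GTPase-like protein also named RABL5, had the smallest p among the members. It had 66.7, 79.2 and 109 CPM in controls 1-2, 2-2 and 3-1 and 44.9, 33.3 and 38.8 CPM in exposed 2-2, 3-1 and 3-3. Every exposed fish was below every control, and control 3-1, which was the lowest control for 17 of 22 members, was the highest one for IFT22. The log2 fold change was -1.12 ± 0.25 (adjusted p = 0.156 by edgeR and 0.00913 by DESeq2). It ranged from -1.27 to -0.92 when each library was left out in turn, and DESeq2 called IFT22 lower in all 6 of those fits. On scaling to germ cell markers it was -0.19 (spermatocytes) and -0.49 (spermatids).

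IFT80 (ENSDARG00000038879), a peripheral subunit, had 186, 162 and 138 CPM in controls 1-2, 2-2 and 3-1 and 82.2, 74.7 and 110 CPM in exposed 2-2, 3-1 and 3-3. The groups were separate, with exposed 3-3 nearest to the controls. Its log2 fold change was -0.87 ± 0.24 (adjusted p = 0.173 by edgeR and 0.0437 by DESeq2). DESeq2 still called IFT80 without control 3-1 and without exposed 3-3, but not without any of the other 4 libraries.

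The Rab-like GTPase ift27 (ENSDARG00000099279) is known in mammals for bringing the BBSome out of cilia. It had 194, 154 and 198 CPM in controls 1-2, 2-2 and 3-1 and 120, 102 and 136 CPM in exposed 2-2, 3-1 and 3-3. The groups were separate, and the log2 fold change was -0.61 ± 0.22 (edgeR adjusted p = 0.239). Its partner hspb11 (IFT25) had 38.9 ± 7.57 CPM in control and 28.7 ± 6.65 CPM in exposed testes, with overlapping groups and -0.44 ± 0.27 on the log2 scale.

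IFT81 and ift74 form a coiled-coil pair that binds tubulin. IFT81 (ENSDARG00000007444), with the most counts of the members, had 570, 364 and 286 CPM in controls 1-2, 2-2 and 3-1 and 235, 184 and 379 CPM in exposed 2-2, 3-1 and 3-3. Exposed 3-3 was above 2 controls, and the log2 fold change was -0.61 ± 0.36 (edgeR adjusted p = 0.441). It ran from -0.96 to -0.29 over left-out libraries. Its partner ift74 had 104, 95.1 and 69.4 CPM in control and 60.2, 64.3 and 57.4 CPM in exposed testes. These groups were separate and the SD over the exposed fish was 3.44 CPM, with -0.56 ± 0.22 on the log2 scale.

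The remaining core members were IFT46, IFT52, IFT56, IFT70A and IFT88. IFT46, which carries outer dynein arms in the alga Chlamydomonas, stood at 337 ± 78.5 CPM in control and 216 ± 48.1 CPM in exposed testes. IFT52, a scaffold of the core, stood at 158 ± 44.9 and 88.6 ± 28.2 CPM. For IFT52 the lowest control (118.4 CPM) and the highest exposed fish (117.5 CPM in exposed 3-3) nearly met. IFT56, also named TTC26, stood at 214 ± 48.6 and 128 ± 34.2 CPM, IFT70A at 161 ± 35.3 and 102 ± 26.9 CPM, and IFT88, the gene of the mouse Polaris protein, at 202 ± 21.6 and 124 ± 43.7 CPM. Their log2 fold changes lay between -0.83 and -0.64 and their edgeR adjusted p between 0.250 and 0.298.

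In the peripheral part, IFT172, a very large subunit that acts at the ciliary tip, had 397, 316 and 192 CPM in control and 204, 138 and 212 CPM in exposed testes. Control 3-1 lay below 2 exposed fish, and the log2 fold change was -0.71 ± 0.31 (edgeR adjusted p = 0.314). IFT57 had -0.46 ± 0.28, with 157 CPM in exposed 3-3 against 151 CPM in control 3-1. IFT20, which also sits at the Golgi, was the IFT-B member nearest to 0. It had 33.9, 44.0 and 25.3 CPM in control and 27.5, 26.2 and 30.7 CPM in exposed testes. The lowest of the 6 libraries was control 3-1, and the log2 fold change of -0.29 ± 0.26 (edgeR adjusted p = 0.653) was within the spread between fish. The peripheral subunits under other symbols, CLUAP1 (IFT38) and TRAF3IP1 (IFT54), also had overlapping groups, at -0.51 ± 0.35 and -0.54 ± 0.33.

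**Figure D2:**
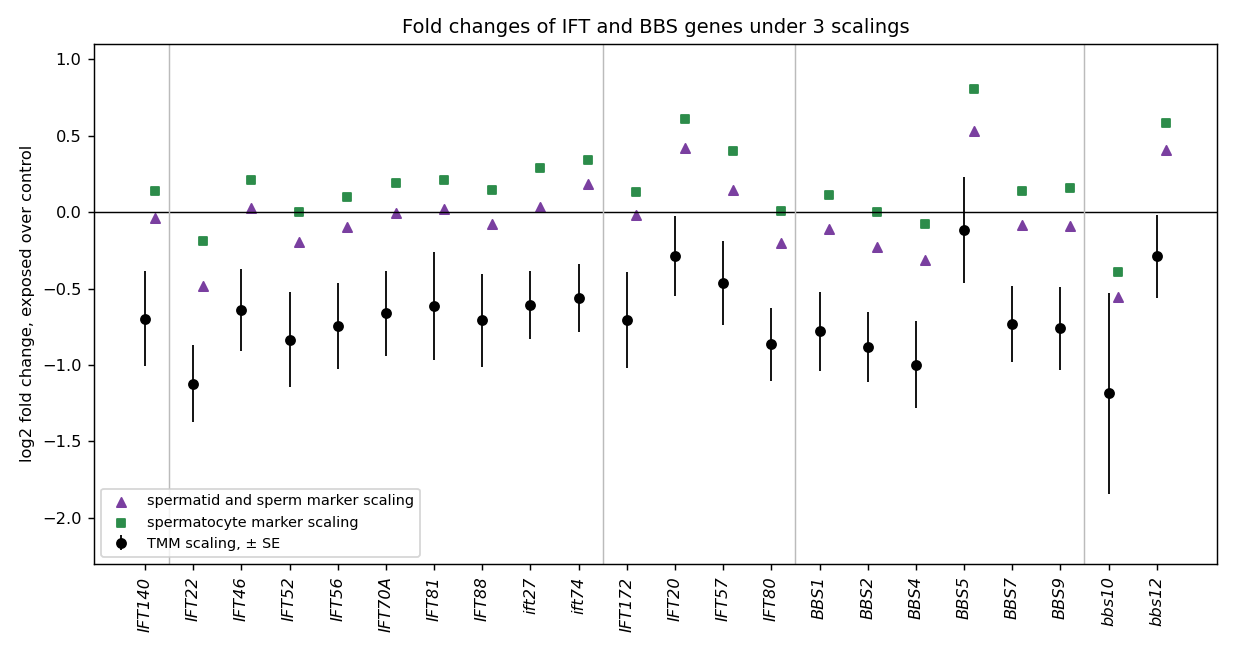
Log2 fold change of each member, exposed over control. Black points with bars show TMM scaling ± SE, green squares spermatocyte marker scaling and purple triangles spermatid and sperm marker scaling; all 22 black points lie below 0, against 3 of the squares and 14 of the triangles.

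In the BBSome 5 of 6 members had an unadjusted p under 0.05 and separate groups, with a median log2 fold change of -0.77. Of all genes, 6.79% were lower at that p and 10.9% had separate groups in that direction. BBS2 (ENSDARG00000041621), a beta-propeller subunit, had 61.8, 64.8 and 53.9 CPM in controls 1-2, 2-2 and 3-1 and 28.7, 28.4 and 40.7 CPM in exposed 2-2, 3-1 and 3-3. The groups were separate, with exposed 3-3 nearest to the controls, and the log2 fold change was -0.88 ± 0.23 (adjusted p = 0.168 by edgeR and 0.0448 by DESeq2). DESeq2 called BBS2 without control 3-1 and without exposed 3-3, and not when any of the other 4 libraries was left out.

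BBS4 (ENSDARG00000063522), a subunit made of helical repeats, had 40.9, 29.5 and 38.1 CPM in controls 1-2, 2-2 and 3-1 and 12.7, 20.6 and 21.0 CPM in exposed 2-2, 3-1 and 3-3. The groups were separate and exposed 2-2 was the lowest fish, where exposed 3-1 was the lowest of the 6 for 18 of 22 members. The log2 fold change was -0.997 ± 0.282 (adjusted p = 0.178 by edgeR and 0.0659 by DESeq2). BBS1 (ENSDARG00000075169), which meets the GTPase ARL6 at the membrane, had 29.8, 36.1 and 25.0 CPM in control and 16.9, 15.1 and 21.0 CPM in exposed testes. Its groups were separate too, at -0.78 ± 0.26 (edgeR adjusted p = 0.213).

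BBS7, a partner of BBS2, had 158, 149 and 124 CPM in control and 84.3, 65.9 and 110 CPM in exposed testes, and BBS9 had 19.9 ± 2.70 and 11.7 ± 1.34 CPM. Their log2 fold changes were -0.73 ± 0.25 and -0.76 ± 0.27. The subunits under other symbols were TTC8 (BBS8) at -0.65 ± 0.33 and BBIP1 (BBS18) at -0.63 ± 0.21. BBIP1 had 249, 229 and 281 CPM in control and 169, 140 and 180 CPM in exposed testes, with no overlap.

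BBS5 (ENSDARG00000039827), a subunit that binds phosphoinositide lipids, was the BBSome member nearest to 0. It had 17.2, 14.5 and 25.5 CPM in controls 1-2, 2-2 and 3-1 and 24.5, 14.1 and 14.2 CPM in exposed 2-2, 3-1 and 3-3. Control 3-1 and exposed 2-2 were the highest, close together, and the groups overlapped. The log2 fold change was -0.12 ± 0.35 (edgeR adjusted p = 0.915). BBS5 was the one member to go above 0 when a library was left out: 0.13 without control 3-1, 0.004 without exposed 3-1 and 0.02 without exposed 3-3. Whether BBS5 differs from the other BBSome members in its response was not tested.

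The genes bbs10 and bbs12 encode chaperonin-like proteins that help to assemble the BBSome. For bbs10 (ENSDARG00000069515) the values were 45.4, 33.2 and 11.2 CPM in controls 1-2, 2-2 and 3-1 and 5.81, 9.77 and 23.9 CPM in exposed 2-2, 3-1 and 3-3. It spread more than any other member, with an SD of 57.9% of the mean in controls and 72.2% in exposed testes. Its log2 fold change, the lowest of all members at -1.19 ± 0.66, had an edgeR adjusted p of 0.423 and ranged from -1.94 to -0.76 over left-out libraries. For bbs12 (ENSDARG00000016112) the values were 29.1, 25.9 and 18.2 CPM in control and 20.3, 17.1 and 22.6 CPM in exposed testes, overlapping, at -0.29 ± 0.27. The related MKKS (BBS6) had 12.3 ± 2.40 CPM in control and 15.5 ± 6.65 CPM in exposed testes (0.33 ± 0.37), with -0.09 without exposed 3-3.

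Within each group, the same library was highest, and another lowest, for most members. Control 1-2 was the highest control for 15 of 22 members and control 3-1 the lowest for 17. In the BBSome, control 1-2 was the highest control only for BBS4 and BBS7. Exposed 3-3 was the highest exposed library for 17 and exposed 3-1 the lowest for 19. Exposed 3-1 was below every control for 21 members, exposed 2-2 for 18 and exposed 3-3 for 15. For single libraries the share of all genes below every control, or highest or lowest in a group or of all libraries, was not computed. These counts, also where given for IFT22 and BBS4, therefore do not show a trait particular to the members. The summed level of the 22 members was 3553, 2872 and 2423 CPM in controls 1-2, 2-2 and 3-1 and 1877, 1381 and 2248 CPM in exposed 2-2, 3-1 and 3-3.

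By complex, as the median of log2(CPM + 0.5) minus each gene's control mean, the 13 IFT-B members stood at 0.23, -0.04 and -0.27 in controls 1-2, 2-2 and 3-1 and at -0.55, -1.09 and -0.41 in exposed 2-2, 3-1 and 3-3. The 6 BBSome members stood at 0.02, 0.08 and -0.08 in the controls and at -0.81, -0.90 and -0.53 in the exposed libraries. For the 4 IFT-A genes the controls were at 0.25, 0.11 and -0.29 and the exposed libraries at -0.59, -0.98 and -0.34. In each complex the exposed medians were below the control medians, with the widest gap in the BBSome. No test was made over the members of a complex.

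**Figure D3:**
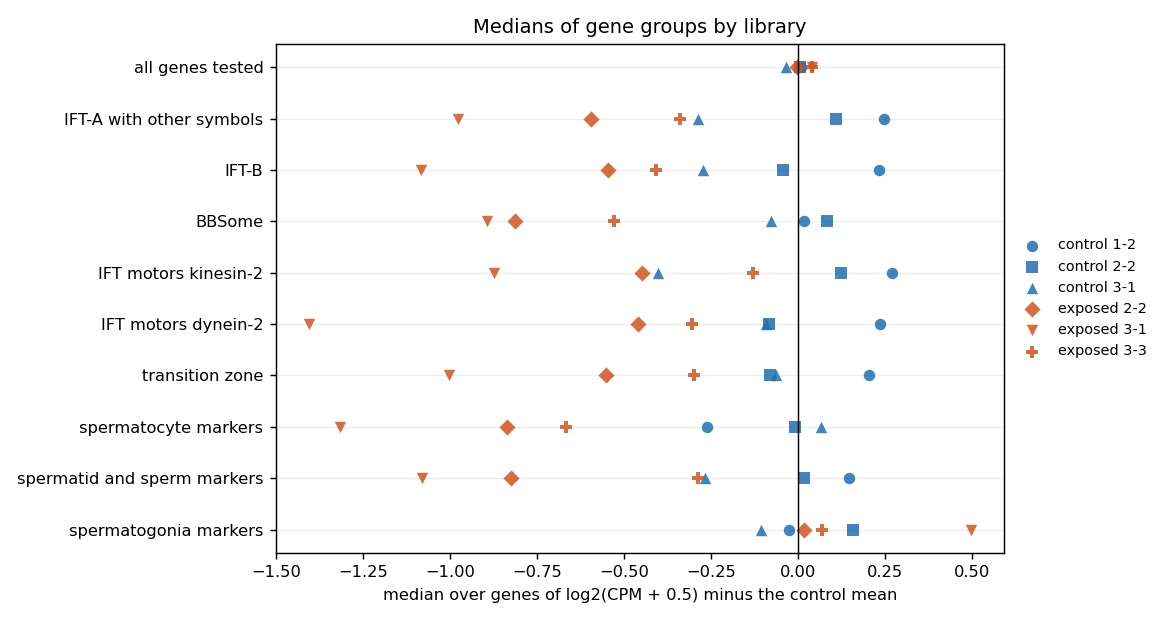
Median of log2(CPM + 0.5) minus the control mean for groups of genes under TMM scaling (the medians of IFT-A, IFT-B and the BBSome lie above 0 with spermatocyte scaling), 1 point per library, controls in blue and exposed testes in orange. IFT-A, IFT-B and BBSome exposed libraries lie left of the controls, as do those of both lists of spermatocyte and spermatid markers, while all genes tested stay near 0.

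Spermatid and sperm markers had the libraries in the same order within each group as IFT-A and IFT-B. In the BBSome control 2-2 stood above control 1-2, and in spermatocyte markers the controls ran the other way. The 19 tested spermatid and sperm markers had medians of 0.15, 0.02 and -0.27 in controls 1-2, 2-2 and 3-1 and of -0.83, -1.08 and -0.29 in exposed 2-2, 3-1 and 3-3, and the 17 spermatocyte markers -0.26, -0.01 and 0.07 in controls and -0.84, -1.32 and -0.67 in exposed libraries. All 17 spermatocyte markers and 18 of 19 spermatid and sperm markers had log2 fold changes below 0 under TMM scaling (medians -0.85 and -0.71), and 14 and 9 had an unadjusted p under 0.05. Of all genes, 47.9% lay below 0 and 6.79% were lower at that p. Summed levels of the spermatocyte markers were 5471 to 6632 CPM in control and 2364 to 3757 CPM in exposed testes. Those of the spermatid and sperm markers were 3221 to 3802 and 1656 to 2606 CPM. Some of the latter list, such as SPAG6, TEKT1 and cfap70, encode flagellar proteins. In whole testes, fewer germ cells and less IFT RNA per germ cell cannot be told apart.

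Most epidermis, macrophage and red blood cell markers had log2 fold changes above 0. Of 26 epidermis markers 25 were above 0 (median 2.79), with a summed level of 1781 to 3908 CPM in controls and of 18390, 15000 and 2477 CPM in exposed 2-2, 3-1 and 3-3. Of 26 tested macrophage and neutrophil markers 21 were above 0, with 933 to 2257 CPM in control and 2794 to 5860 CPM in exposed testes. Control 3-1 held the 2257 CPM. There 1 MFAP4 identifier (ENSDARG00000090557) alone had 813 CPM, against 2.44 and 3.02 CPM in controls 1-2 and 2-2. All 9 red blood cell markers were above 0, with 880 to 2274 and 3298 to 4592 CPM. None of the tested epidermis and red blood cell markers had 0 counts in all controls, and their part in the members' values was not tested. The members' median was -0.73 without exposed 2-2, -0.56 without exposed 3-1 and -0.89 without exposed 3-3. Of the other testis lists, 7 of 16 spermatogonia markers, 6 of 14 Sertoli cell markers and 10 of 11 Leydig cell markers lay below 0 (medians 0.23, 0.12 and -0.70). Beside all the lists of this paragraph, 47.9% of all genes lay below 0, with a median of 0.04. Summed spermatogonia markers had 2409 to 2868 CPM in control and 1401 to 2157 CPM in exposed testes. Most of that sum came from PIWIL1 (means of 1207 and 721 CPM) and DDX4 (554 and 359 CPM). The 9 spermatogonia markers above 0 had control means from 0.73 CPM (gfra1a) to 15.0 CPM (ZBTB16). The sum and the median of this list thus rest on different genes. Sertoli cell markers had 2547 to 3024 and 1836 to 2594 CPM, and Leydig cell markers 2244 to 4554 and 1538 to 2623 CPM. Among spermatogonia markers, PIWIL1, DDX4, DAZL and DMRT1 were lower with separate groups and zbtb16b was higher. Separate groups were found for 10.9% (lower) and 12.8% (higher) of all genes.

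Among the motors of the trains and under TMM scaling, all 5 dynein-2 genes lay below 0 (median -0.71; 2 at an unadjusted p under 0.05), as did 5 of 7 kinesin-2 genes (median -0.37; 3 at an unadjusted p under 0.05). Over all genes 47.9% lay below 0 and 6.79% were lower at that p. DYNC2H1, the dynein-2 heavy chain, had 226 ± 61.7 CPM in control and 146 ± 39.3 CPM in exposed testes (-0.63 ± 0.30). DYNC2I2, an intermediate chain, had 134, 100 and 124 CPM in control and 60.1, 46.6 and 83.7 CPM in exposed testes, with separate groups and -0.91 ± 0.27 (edgeR adjusted p = 0.184).

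The light intermediate chain DYNC2LI1 stood at -0.71 ± 0.29. KIF3A, a motor subunit of heterotrimeric kinesin-2, had 131.5, 135.5 and 107.8 CPM in control and 72.3, 49.7 and 86.6 CPM in exposed testes, again separate, at -0.85 ± 0.26 (edgeR adjusted p = 0.189). KIF17, the homodimeric kinesin-2, had 207, 199 and 72.3 CPM in control and 36.4, 62.8 and 84.9 CPM in exposed testes. Control 3-1 lay among the exposed fish, so the log2 fold change of -1.38 ± 0.46 (edgeR adjusted p = 0.220) came with overlapping groups. The most distant kinesin-2 genes upward were 2 identifiers that share the symbol KIF3C, both under 3 CPM in every library.

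Of the regulators of the BBSome, 8 of 13 lay below 0 (median -0.29; 2 at an unadjusted p under 0.05). The shares of all genes were 47.9% below 0 and 6.79% lower at that p. RAB23, a small GTPase of ciliary signalling, had 18.2 ± 4.36 CPM in control and 9.34 ± 0.82 CPM in exposed testes, with separate groups and -0.96 ± 0.30. The list includes subunits of the CCT chaperonin. CCT4 and CCT5 had 0.11 ± 0.25 and -0.29 ± 0.22, and CCT4 stood at -0.16 without exposed 3-1. The 2 identifiers named CCT2 stood at 0.21 ± 0.36 and 0.13 ± 0.27. ARL6 (BBS3), the GTPase that recruits the BBSome, had 184 ± 18.4 and 127 ± 41.5 CPM.

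Of the tubby proteins and lipid cargo adaptors 8 of 12 lay below 0 (median -0.49; 3 at an unadjusted p under 0.05). The shares of all genes were 47.9% below 0 and 6.79% lower at that p. The phosphatase INPP5E stood at -0.66 ± 0.22, the lipid cargo carrier UNC119B at -0.61 ± 0.21 and tulp3, which couples membrane receptors to IFT-A, at -0.60 ± 0.26. The upward gene with the smallest p was UNC119, at 3.10 ± 0.46 and 3.89 ± 1.06 CPM. Low levels were also found for TUB and GPR161 (ENSDARG00000055659) above 0, with control means of 1.53 and 1.97 CPM. Below 0, tulp1a and tulp1b had 3.02 and 2.94 CPM.

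At the transition zone, the gate at the base of the cilium, 18 of 21 genes lay below 0 (median -0.62; 7 at an unadjusted p under 0.05, 8 with separate groups). Of all genes, 47.9% lay below 0, 6.79% were lower at that p and 10.9% had separate groups in that direction. DESeq2 called tctn1 and tctn2 lower, and 1.34% of all genes. For tctn1 there were 28.7 ± 5.15 CPM in control and 13.3 ± 2.96 CPM in exposed testes (-1.11 ± 0.28; adjusted p = 0.165 by edgeR and 0.0249 by DESeq2), and for tctn2, named after its values were seen, 22.01 ± 1.48 and 11.7 ± 0.84 CPM. MKS1 stood at -0.97 ± 0.32 and ahi1 at -0.62 ± 0.31. The scaffold gene rpgra had 1.09 ± 0.13 and 1.79 ± 0.70 CPM.

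All 7 genes of ciliary kinases and of the ciliary base lay below 0 (median -0.59; 1 at an unadjusted p under 0.05), with MAK, a kinase of ciliary length, at -0.67 ± 0.29 and cep89 at -0.73 ± 0.32. Of the transcription factors of ciliary genes 10 of 11 lay below 0 (median -0.59; 3 at an unadjusted p under 0.05). Beside both lists, 47.9% of all genes lay below 0 and 6.79% were lower at that p. The gene rfx3, a factor that binds the promoters of ciliary genes, had 255 ± 92.2 CPM in control and 144 ± 30.6 CPM in exposed testes (-0.82 ± 0.31), with separate groups. FOXJ1, a factor of motile cilia, stood at -0.57 ± 0.33 and its relative foxj1b at -0.91 ± 0.33. MYB, which acts in ciliated cells and in blood progenitors, was above 0, with 19.9 ± 0.58 CPM in control and 46.5 ± 23.5 CPM in exposed testes (1.23 ± 0.35; adjusted p = 0.179 by edgeR and 0.0370 by DESeq2). On scaling to spermatocyte markers the medians of all these lists, motors and regulators included, lay above 0.

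**Figure D4:**
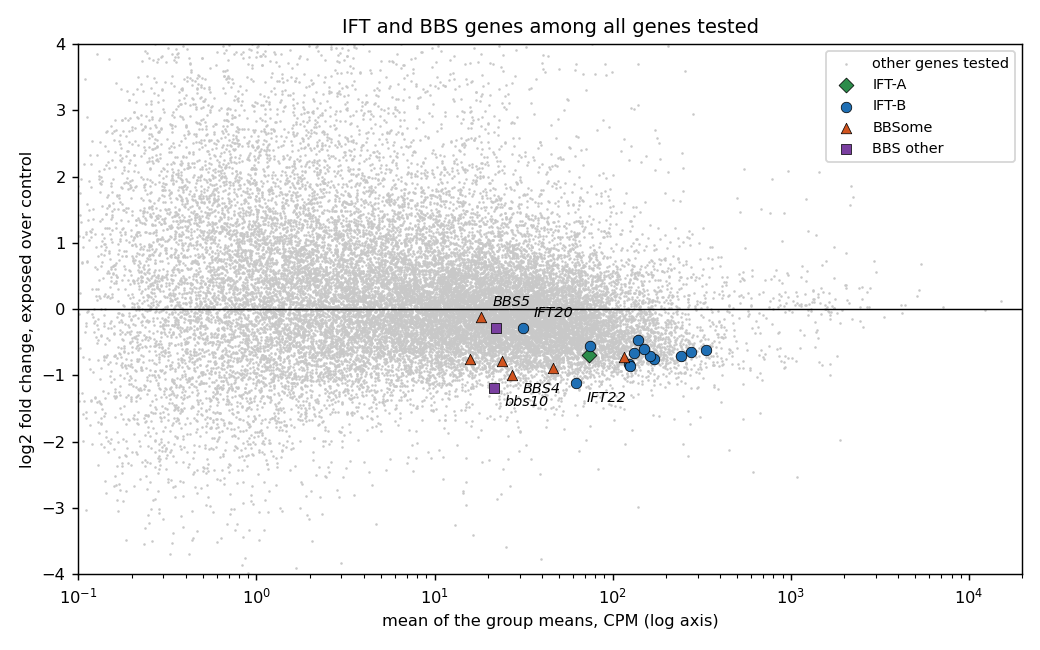
Log2 fold change against the mean level in CPM on a log axis, with grey points for the genes tested and coloured symbols for the members. The members lie between -1.19 and -0.12, with bbs10 lowest and BBS5 highest; 757 genes fall outside the axes.

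Among all 26108 log2 fold changes, the members took percentiles from 4.8 (bbs10) and 5.4 (IFT22) to 32.7 (IFT20 and bbs12) and 41.9 (BBS5). All members but IFT20, IFT57, BBS5 and bbs12 lay in the lowest 20 percent.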

How the data were processed

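The values start from raw read counts for each Ensembl gene, which the authors deposited without normalization as 1 table holding 6 libraries. Columns were matched to samples by their descriptions and 0 were left out. Per the submitters' processing notes, reads were aligned with STAR to GRCz11. The counting tool, the annotation and the use of strand are not named in the sources used here, so reads shared by paralogs or overlapping genes may have been split in unknown ways. Even numbers made up between 66.8% and 75.1% of the counts from 10 to 99. Whether both mates of a read pair were counted is not stated.

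A reference table named 29201 of 32520 identifiers. After filterByExpr and TMM scaling, edgeR 4.0.16 fitted group as the only term (robust glmQLFit with the legacy method) and glmQLFTest gave two-sided p-values. P-values were adjusted by Benjamini-Hochberg over 26108 genes. The SE is the absolute log2 fold change over the square root of F. With 3 fish a group, exact permutation of a single value cannot give p under 0.1, and none was run. The procedure was run on simulated counts drawn independently for each library, with no shift in cell composition and no shared tank. That run checked the fit and cannot bear on those questions.

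Alternatives were DESeq2 1.42.0, limma voom (limma 3.58.1), other scalings and filters, edgeR's bias-adjusted and non-robust fits, a replicate block, and each library left out. Germ cell scaling used the geometric mean of a marker list. R 4.3.3 and Python 3.11.15 were used.

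The members and the 16 lists beside them were chosen with earlier results of these data known. Listed symbols with no match were left out, and some matched a name shared by paralogs. Values in every library are given for the 3 members of each complex with the smallest p, the one with the highest CPM and the one nearest to 0 or above it. In related cilium lists the 2 genes with the highest CPM and the one with the smallest p in each direction are named. Further genes were named after their values were seen.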

Additional observations from a re-analysis of the deposited data

How the results depend on the processing

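Under relative log expression, upper quartile and library totals, all 22 members stayed below 0, with medians of all genes between 0.01 and 0.06. The number of members lower at an edgeR unadjusted p under 0.05 was 14 (6.79% of all genes). It was 15 under upper quartile scaling (7.19%) and 8 with library totals (4.84%). With spermatocyte or spermatid scaling it was 0 (0.153% and 0.287%). It was 4 at a threshold of 0.01 (1.6%), and 5 to 16 with a library left out (3.7% to 8.87%). With a library left out, 21 or 22 members were below 0, and medians ran from -0.82 to -0.47 for IFT-B, from -0.93 to -0.69 for the BBSome and from -0.85 to -0.55 for the 4 IFT-A genes. Over all genes edgeR called 0. It called 1 with each of the 3 other scalings, 12 without a filter, 70 with the bias-adjusted method, 5036 with spermatocyte scaling, 35 with spermatid scaling and 0 to 396 with a library left out (396 without exposed 3-3), and DESeq2 called 1756. DESeq2 called 3 members, 11 without exposed 3-3 (5.26% of all genes lower), 5 without control 3-1 (1.87%) and 1, IFT22, without any of the other 4.

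The replicate number of the labels was shared by 2 numbers across the groups. As a replicate block it left 3 members lower at an unadjusted p under 0.05 (IFT22, BBS2 and BBS4), against 3.35% of all genes, with all 22 below 0 and 5 genes called over all. Deviations of same-numbered libraries of different groups correlated between -0.034 and 0.019, and nothing says what the number marks. Exposed 3-1 and 3-3, which share a number, correlated at -0.399, against -0.526 and -0.57 for the other exposed pairs. Deviations from a group mean correlate negatively by construction, so these values cannot show whether exposed 3-1 and 3-3 shared a tank.

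Spermatocyte scaling gave medians of 0.18 for the 4 IFT-A genes, 0.19 for IFT-B and 0.13 for the BBSome, with 3 members below 0. Spermatid scaling gave -0.022, -0.005 and -0.10, with 14 below 0. These shifts follow from the lists used, whose own medians were -0.85 and -0.71 under TMM. Log2 fold changes that crossed 0 with spermatocyte scaling were IFT140 0.141, IFT46 0.213, IFT52 0.001, IFT56 0.101, IFT70A 0.191, IFT81 0.209, IFT88 0.148, ift27 0.287, ift74 0.342, IFT172 0.135, IFT20 0.609, IFT57 0.398, IFT80 0.009, BBS1 0.110, BBS2 0.004, BBS5 0.808, BBS7 0.139, BBS9 0.156 and bbs12 0.583. Beside the members they included cep89 0.110, UNC119B 0.270, TRAF3IP1 0.301, rfx3 0.019, WDR19 0.217, DYNC2LI1 0.147, ahi1 0.230, CCT5 0.668, MAK 0.179 and tulp3 0.261. Further ones were hspb11 0.446, WDR35 0.280, BBIP1 0.271, CLUAP1 0.319, KIF3A 0.023, TTC8 0.226, FOXJ1 0.271, INPP5E 0.227 and DYNC2H1 0.223. Not all are listed: transition zone genes below 0 went from 18 to 4 and regulators of the BBSome from 8 to 1. With spermatid scaling the members that crossed 0 were IFT46 0.025, IFT81 0.021, ift27 0.036, ift74 0.181, IFT20 0.421, IFT57 0.148, BBS5 0.532 and bbs12 0.405. Some of the other genes that did so were UNC119B 0.063, TRAF3IP1 0.150, ahi1 0.019, CCT5 0.425, tulp3 0.10 and hspb11 0.178. So did WDR35 0.030, BBIP1 0.012, CLUAP1 0.10, TTC8 0.028, FOXJ1 0.082, INPP5E 0.005 and DYNC2H1 0.042. BBS5 was 0.130 without control 3-1, 0.004 without exposed 3-1 and 0.016 without exposed 3-3, CCT4 -0.155 without exposed 3-1 and MKKS -0.086 without exposed 3-3. Over left-out libraries BBS5 ran from -0.436 to 0.130, CCT4 from -0.155 to 0.243 and MKKS from -0.086 to 0.508. The precision is limited by the 3 fish per group.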

Other observations

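The paralog of the IFT-A gene TTC21B, ttc21a, had 2.53, 2.88 and 1.17 CPM in controls and 3.22, 2.72 and 2.54 CPM in exposed testes, at 0.37 ± 0.60 on the log2 scale, whereas TTC21B had 130, 104 and 62.3 CPM in controls and 40.2, 49.7 and 72.5 CPM in exposed testes. TTC8 was unusual among the BBSome subunits in that its lowest library was a control (control 2-2, 25.3 CPM), while its 3 exposed libraries lay at 28.9, 26.9 and 29.9 CPM.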
